A study of Homo sapiens with 2 samples.

Results

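The numbered zinc finger genes of human chromosome 19 were examined for CHD4 occupancy in melanoma cells. The set comprised every protein-coding gene on chromosome 19 in GENCODE release 44, mapped to GRCh37, whose symbol is ZNF followed by a number. It held 249 of the 20162 protein-coding genes of the annotation, 3 of them read-through genes that join neighbouring members (*ZNF559-ZNF177*, *ZNF625-ZNF20* and *ZNF816-ZNF321P*). The rule uses no measured value. CHD4 was profiled by ChIP-seq in 501Mel, an established human melanoma line, from 1 immunoprecipitated library and 1 input library, both from chromatin fixed in 0.4% paraformaldehyde. No agent or genotype distinguished the libraries, and neither was replicated. The deposited result was a list of 60126 broad peaks on hg19, the same build as GRCh37, without read counts or any expression value, so the identity of the line was taken from its label. With no spread between replicates, no test was made, and the 95% Wilson intervals given below cover counting error over genes, which are not independent where genes adjoin or share a peak.

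CHD4 is the ATPase of the NuRD complex, which couples nucleosome remodelling to histone deacetylation. Most chromosome 19 zinc finger genes lie in tandem clusters formed by repeated duplication, and many encode a KRAB domain that recruits TRIM28 and through it the histone methyltransferase SETDB1. Their C2H2 fingers are typically encoded together in the last coding exon, a long exon that resembles its counterparts in neighbouring genes and that in many cell types carries H3K9me3.

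The gene parts to which peaks were assigned can be read directly in the sequence. Shown first are the 200 bases before the start of *ZNF805* (chr19:57751800-57751999, plus strand) and *ZNF181* (chr19:35224860-35225059, plus strand), because they held the promoter peaks of highest fold enrichment in the set. *ZNF121* (chr19:9695181-9695380, minus strand) had another strong peak, and *ZNF91* (chr19:23578274-23578473, minus strand), a long KRAB gene, had none. Capitals mark matches to fixed promoter letters on either strand, namely CCAAT, the GC box GGGCGG, the ETS letters CCGGAAG and the YY1 letters AAGATGGCG.
ZNF805: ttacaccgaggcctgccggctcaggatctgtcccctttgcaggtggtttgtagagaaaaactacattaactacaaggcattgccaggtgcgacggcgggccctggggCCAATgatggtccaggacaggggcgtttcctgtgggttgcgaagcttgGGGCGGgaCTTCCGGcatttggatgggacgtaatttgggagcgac
ZNF181: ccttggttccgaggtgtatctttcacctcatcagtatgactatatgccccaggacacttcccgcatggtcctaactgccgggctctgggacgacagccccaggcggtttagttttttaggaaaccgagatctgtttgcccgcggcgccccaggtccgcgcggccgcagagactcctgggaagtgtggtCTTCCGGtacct
ZNF121: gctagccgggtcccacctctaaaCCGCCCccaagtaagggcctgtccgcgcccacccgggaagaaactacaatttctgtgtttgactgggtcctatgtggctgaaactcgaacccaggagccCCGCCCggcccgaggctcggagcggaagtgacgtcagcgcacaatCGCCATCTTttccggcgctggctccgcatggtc
ZNF91: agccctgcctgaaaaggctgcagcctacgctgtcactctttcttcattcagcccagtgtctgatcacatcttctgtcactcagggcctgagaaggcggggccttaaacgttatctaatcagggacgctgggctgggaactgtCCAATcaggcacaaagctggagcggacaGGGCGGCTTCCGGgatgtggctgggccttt
The peak covered the first 56 bases of the *ZNF805* window and 159 bases of the *ZNF181* window, in both cases outside the capitals. At *ZNF121* it covered the first 91 bases, which include the first of the GC boxes. *ZNF91* holds CCAAT, ETS and GC box letters as *ZNF805* does. The last sequence is a 180-base stretch of the finger-coding exon of *ZNF77* (chr19:2934082-2934261, minus strand), the single place where a CHD4 peak lay wholly over a finger array. Its capitals mark ACTGGAGA, the start of the linker that joins neighbouring fingers.
ZNF77 finger exon: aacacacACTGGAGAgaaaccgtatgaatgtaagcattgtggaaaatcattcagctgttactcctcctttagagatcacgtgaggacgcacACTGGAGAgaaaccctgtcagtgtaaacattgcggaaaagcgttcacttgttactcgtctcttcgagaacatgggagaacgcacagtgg
These 8 letters occur 1210 times in the coding parts of the last coding exons of 201 members.

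Taken over all gene lengths, CHD4 peaks occurred at fewer of the chromosome 19 ZNF genes than at protein-coding genes at large, and those present lay mainly at the gene start. A peak overlapped the gene or the 2000 bp before it in 117 members, or 47.0% (interval 40.9% to 53.2%), against a background of 58.3% of all protein-coding genes. The share was 66.6% (63.9% to 69.2%) for the 1231 other genes of chromosome 19 and 56.0% (50% to 61.9%) for the 266 numbered ZNF genes on other chromosomes. The 117 members carried 153 distinct peaks of the 2426 on chromosome 19, and 13 of these peaks touched more than 1 member. In all, 132 members had no peak, 95 had 1, 17 had 2 and 5 had 3 or more. Genes with 3 or more peaks made up 2.01% of members, 22.4% of other chromosome 19 genes and 22.1% of all protein-coding genes. A peak with a −log10 q of at least 2 was present at 83 members (33.3%, against 43.2% of all genes) and one of at least 5 at 4 members (1.61%, against 4.73%). Counted over peaks rather than genes, 63.4% of the 153 peaks at members reached a −log10 q of 2 and 2.61% reached 5, against 48.5% and 2.23% of all peaks. For peaks at other chromosome 19 genes these shares were 56.4% and 4.47%.

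**Figure D1:**
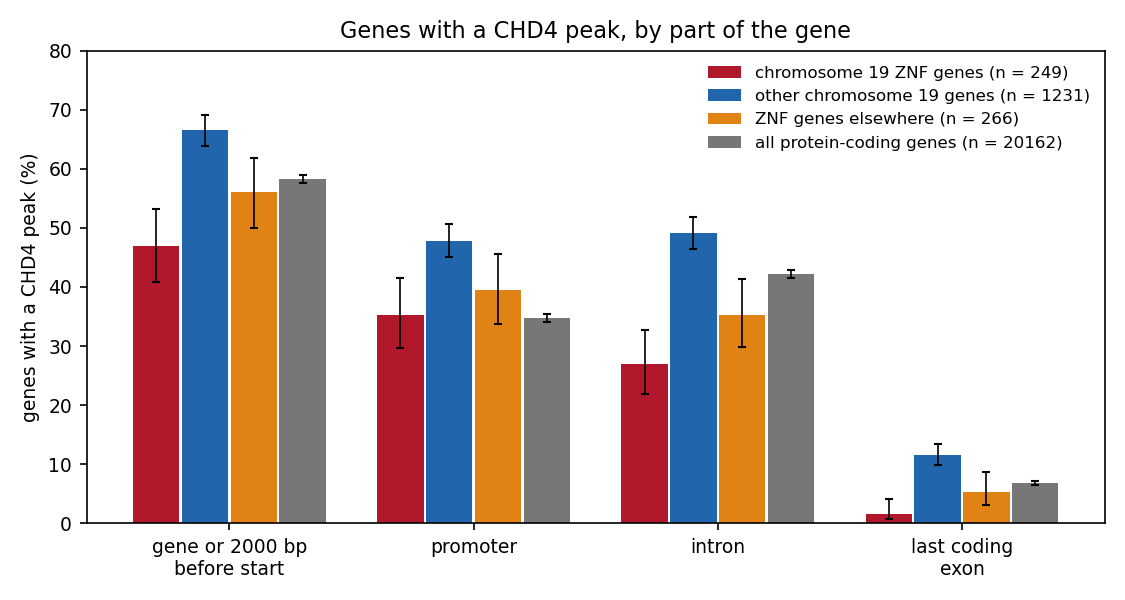
Percentage of genes with a CHD4 peak in the whole gene region and in each of its parts, for 4 gene sets, with Wilson 95% intervals as error bars. Members sit near all genes at the promoter (35.3% and 34.7%) and below every other set in the last coding exon (1.61% against 5.26% to 11.5%).

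The promoter, taken as 2000 bp before the gene start to 500 bp after it, held a peak in 88 members. This share of 35.3% (29.7% to 41.5%) lay close to the background of 34.7% of all protein-coding genes, and below the 47.8% (45.1% to 50.6%) of other chromosome 19 genes. ZNF genes elsewhere had 39.5% (33.8% to 45.5%), an interval that overlaps that of members. The 86 promoter peaks formed 90 pairs with members, of which 87 were centred within 1000 bp of the start and 44 covered the start itself. The centre preceded the start in 58 pairs, with a median position 81.5 bp upstream (a value of −81.5). Around the gene start the share of members with a peak over a 200-bp bin was highest at 27.3%, from 200 bp before the start to the start. The highest bin was 27.4% for ZNF genes elsewhere, 29.5% for other chromosome 19 genes and 22.4% for all genes. Farther out, averaged over 5 to 10 kb on either side, 1.52% of members had a peak over a bin. The value was 2.79% for ZNF genes elsewhere, 6.81% for other chromosome 19 genes and 3.57% for all genes.

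**Figure D2:**
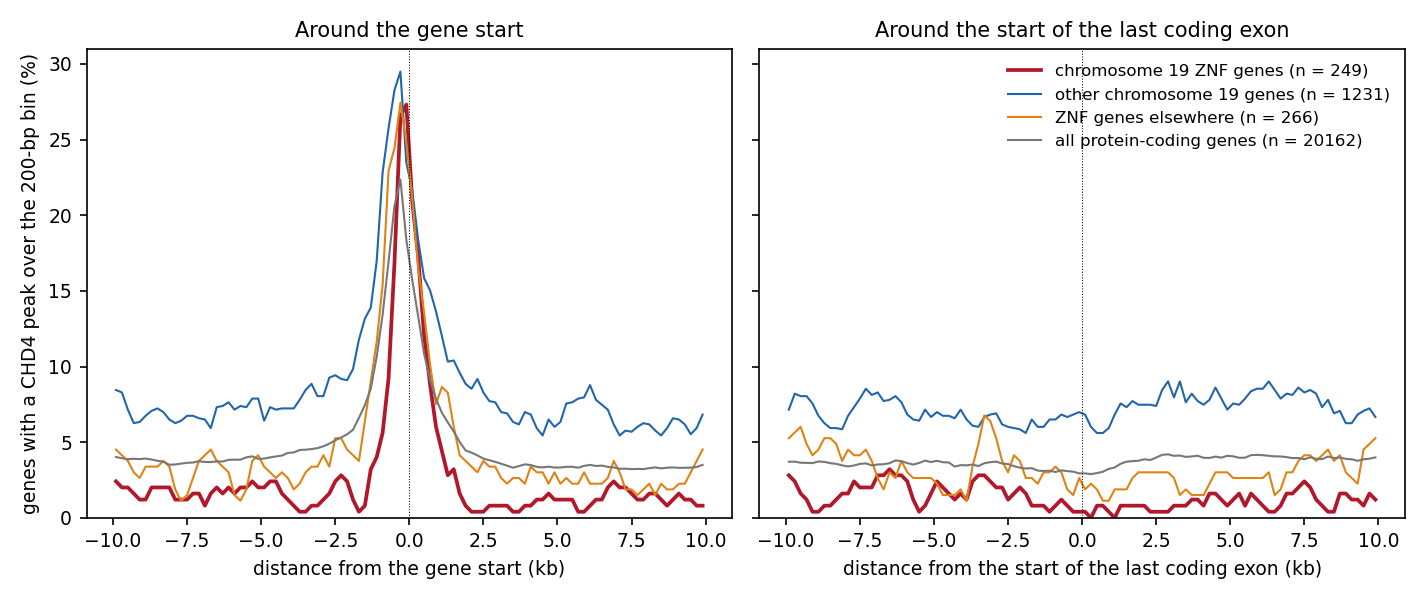
Percentage of genes with a CHD4 peak over each 200-bp bin within 10 kb of the gene start (left) and of the first base of the last coding exon (right), for the same 4 sets. Members have a narrow maximum of 27.3% at the gene start and no rise at the last coding exon, where the mean over its first 2000 bp is 0.562%.

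The strongest promoter peak was that of *ZNF805* (ENSG00000204524, 57752000 to 57774096, plus strand), a KRAB gene in the most distal cluster. It spanned 57751671 to 57751855 with an enrichment over the background of 5.33-fold, as the peak caller gave it for the region, and a −log10 q of 6.99, and 99.7% of all peaks had a lower fold. *ZNF181* (ENSG00000197841) came next, with a 159-bp peak from 35224863 to 35225021, a fold of 4.63 and a −log10 q of 5.11. These were the 2 promoter peaks of members with a −log10 q of at least 5. *ZNF440* (11924350 to 11924940), *ZNF121* (9695290 to 9695743) and *ZNF77* (2945209 to 2946316) followed with folds of 4.19, 4.11 and 4.07. *ZNF285* had a peak of the shortest length in the list, from 44905587 to 44905737 with a fold of 4.03, and it also overlapped the promoter of an adjacent gene, ENSG00000267173. Over all 86 promoter peaks the fold ranged from 2.79 to 5.33 with a median of 3.39. The median was 3.21 for the 6775 promoter peaks of all protein-coding genes and 3.32 for those of other chromosome 19 genes. A −log10 q of at least 2 was given for 73.3% of member promoter peaks, 59.1% of all promoter peaks and 64.9% of those of other chromosome 19 genes. One of at least 5 was given for 2.33%, 4.13% and 6.03%. Of the 86 peaks, 17 also lay in the promoter of a gene outside the set and 4 in the promoters of 2 or more members, so these cannot be assigned to 1 gene.

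**Figure D3:**
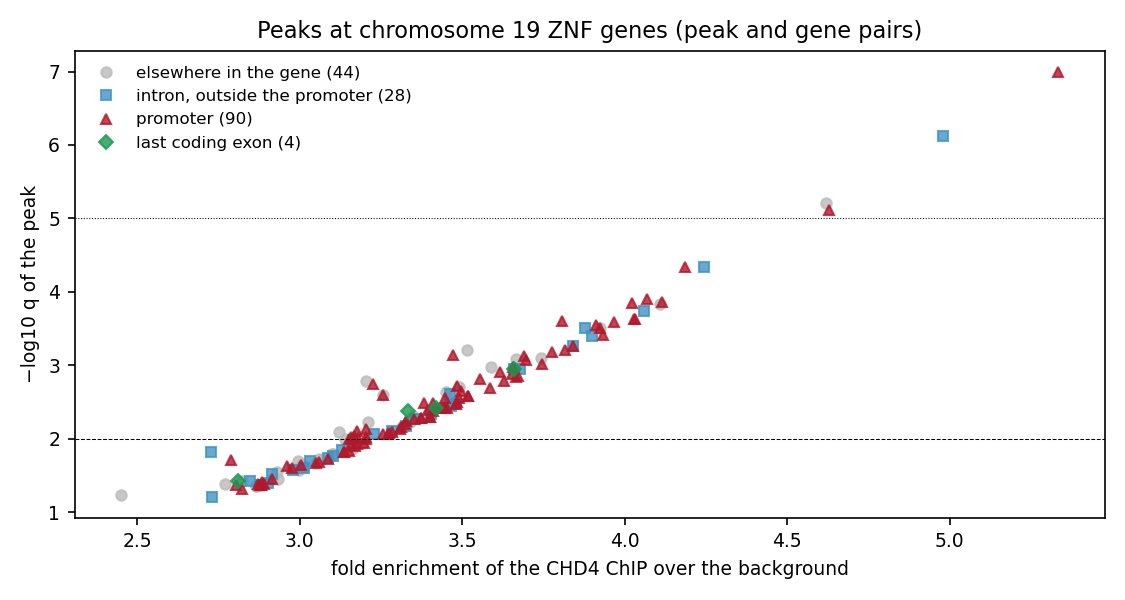
Fold enrichment over the background (horizontal axis) against −log10 q (vertical axis) for the 166 pairs of a peak and a member, by the part of the gene, with lines at a −log10 q of 2 and 5. The median fold over the 153 peaks is 3.31, 4 peaks lie above the upper line, and the 4 peaks in last coding exons lie at folds from 2.81 to 3.66.

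Gene bodies were sparsely occupied. An intron of the canonical transcript was overlapped by a peak in 67 members, or 26.9% (21.8% to 32.7%), against a background of 42.2% of all genes and 49.1% (46.4% to 51.9%) of other chromosome 19 genes. In 51 of these members the promoter had a peak as well, and 41 peaks overlapped both parts. A peak that lay inside an intron and touched no exon was found in 14 members (5.62%, 3.38% to 9.22%), against 24.4% of ZNF genes elsewhere and 32.3% of all genes. By bases, 0.588% of member introns lay under peaks and 0.398% outside promoters, against 3.54% of the introns of other chromosome 19 genes outside promoters and 2.09% of those of all genes. The median fold of the 29 intron peaks outside the promoter of the member whose intron they overlapped was 3.33. Several of these also covered exon bases, as at *ZNF529*, where a peak centred 31816 bp from the gene start covered 153. The gene start was the outermost one annotated, so a peak at a later start of the gene can count as an intron peak.

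*ZNF536* stood apart from the other members. This gene (ENSG00000198597, 30715798 to 31204493), which encodes a brain-expressed repressor without a KRAB domain, is 488696 bp long and lies alone on its stretch of the chromosome. It held 24 peaks, of which 1 was in the promoter, 3 in introns of the canonical transcript and the other 20 in parts of the gene outside the canonical transcript. Its intron peak from 30981265 to 30981934 had the highest fold of any intron peak in the set, at 4.98 with a −log10 q of 6.12. A second, from 31004237 to 31004514, had a fold of 4.24. *ZNF587B* followed among the intron peaks, with a 156-bp peak from 58342794 to 58342949 and a fold of 4.06. A further peak of *ZNF587B*, from 58340250 to 58341552, lay outside the canonical transcript with a fold of 4.62 and a −log10 q of 5.21. The next intron peaks, at *ZNF285*, *ZNF260* (fold 4.03, 37018963 to 37019251), *ZNF738* (4.02) and *ZNF699* (3.97), also lay in the promoters of the same genes. *ZNF627* had 4 peaks, all within the gene but outside its promoter and its canonical transcript. One of them, from 11671024 to 11671744, overlapped the promoter of *ELOF1*, an elongation factor gene that starts 144 bp away on the opposite strand. *ZNF580* and *ZNF581*, which overlap each other, had the same 3 peaks. Peaks outside the 3 parts were the sole peaks of 12 members (4.82%, 2.78% to 8.23%), against 2.69% of all protein-coding genes. The share was 1.54% of other chromosome 19 genes and 1.88% of ZNF genes elsewhere.

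Last coding exons, where the fingers are encoded, were almost free of peaks. Translation of the canonical coding sequences gave 3123 C2H2 fingers with a median of 12 per member, and 3093 of them (99.0%) were encoded in the last coding exon. A peak overlapped this exon in 4 members, or 1.61% (0.626% to 4.06%), against a background of 6.8% of all genes. The share was 11.5% (9.79% to 13.4%) for other chromosome 19 genes and 5.26% (3.16% to 8.64%) for ZNF genes elsewhere. Members' last coding exons were long, with a median of 3290 bp. Among exons of at least 1000 bp the share was 2 of 242 members (0.826%), 13.4% of other chromosome 19 genes and 8.08% of all genes. By bases, 976 of the 915376 bp of member last coding exons lay under peaks (0.107%), against 1.12% for ZNF genes elsewhere, 2.17% for all genes and 4.4% for other chromosome 19 genes. The finger arrays themselves had 264 of 284016 bp under peaks (0.093%).

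**Figure D4:**
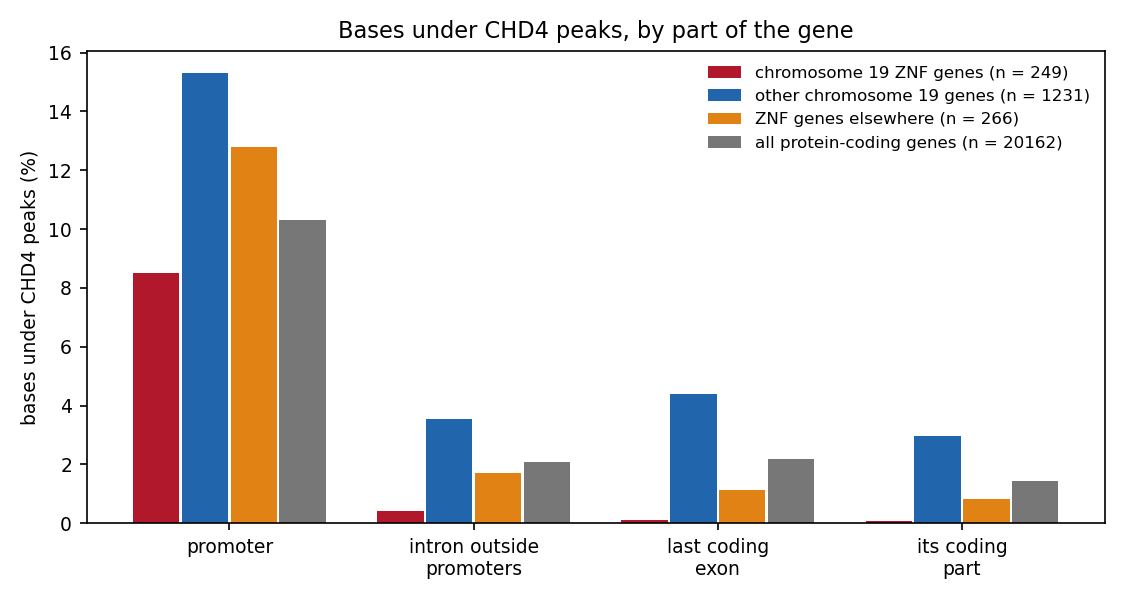
Percentage of bases under CHD4 peaks in promoters, introns outside promoters, last coding exons and the coding part of those exons, for the 4 gene sets, each base counted once. Members are lowest in every part, from 8.5% in promoters down to 0.107% in last coding exons and 0.0838% in their coding part.

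The 4 exceptions were *ZNF324*, *ZNF580*, *ZNF428* and *ZNF77*. At *ZNF324* a peak from 58986554 to 58988447, with a fold of 3.66, covered the last 250 bp of the gene and none of its coding sequence. At *ZNF580* a peak from 56153149 to 56153913 (fold 3.42) covered 51 bp of the exon, or 5.24%. The peak at *ZNF428* (44111290 to 44111790, fold 3.33) covered 46.9% of an 884-bp exon but 19 coding bases, in a gene with a single finger. *ZNF77* was the exception within the fingers, with a 260-bp peak from 2934043 to 2934302 that lay entirely over its array of 12 fingers. Its fold of 2.81 and −log10 q of 1.43 were among the lower values of the list, with 19.9% of all peaks at a lower fold.

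Zinc finger exons resemble one another, and the authors kept reads with a single best position, so the share of 50-base windows that occur once in the genome was computed. It was 93.3% in member last coding exons, 92.0% in finger arrays, 93.5% in member promoters and 90.3% in member introns, against 95.1%, 92.3% and 90.8% in the last coding exons, promoters and introns of other chromosome 19 genes. Single genes were lower, with 34.8% in the last coding exon of *ZNF98*, 53.8% in *ZNF492* and 64.7% in *ZNF417*. Among the 140 members with at least 95% unique windows in the last coding exon, 3 had a peak there (2.14%) and 61 had a promoter peak (43.6%). Among the other 109 the counts were 1 (0.917%) and 27 (24.8%). Base composition differed as well. GC content was 41.3% in member last coding exons and 49.6% in their promoters, against 55.0% and 55.3% in other chromosome 19 genes. Unique windows count exact repeats and do not allow for mismatches. The part of unique windows and of base composition in the low share of last coding exons with peaks was not tested.

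Occupancy also varied along the chromosome. Joining members separated by at most 300000 bp gave 25 clusters, of which 12 held 5 or more members and together 233 of the 249. Among these 12, promoter peaks were rarest in the pericentromeric cluster from *ZNF737* to *ZNF254* (20718631 to 24312770), with 3 of 29 members (10.3%, 3.58% to 26.4%), namely *ZNF708*, *ZNF738* and *ZNF675*. The *ZNF175* to *ZNF331* cluster (52074536 to 54083523) had them at 5 of 40 (12.5%, 5.46% to 26.1%), and the *ZNF101* to *ZNF486* cluster at 1 of 8. At the other end, all 7 members of the *ZNF628* to *ZNF581* cluster (55987984 to 56156989) had a promoter peak (interval 64.6% to 100%), as did 4 of 5 (80%) between *ZNF554* and *ZNF77*, 13 of 23 (56.5%, 36.8% to 74.4%) between *ZNF575* and *ZNF180* (44029649 to 45004576) and 12 of 26 (46.2%) between *ZNF565* and *ZNF573*. The other protein-coding genes within the same spans, of whatever family, were counted alongside. On the whole chromosome 22 of the 1231 such genes had a KRAB-like stretch. Some shared a promoter peak with a member, as *IRGQ* and *SRRM5* did with *ZNF576* and *FIZ1* with *ZNF524*. The counts for members and other genes are therefore not independent. None of the 3 other genes in the *ZNF737* to *ZNF254* span and none of the 14 in the *ZNF175* to *ZNF331* span had a promoter peak, whereas 5 of 6 in the *ZNF628* to *ZNF581* span and 11 of 14 in the *ZNF575* to *ZNF180* span did. In some other spans members had promoter peaks more often than the few other genes. The counts were 6 of 12 members and 0 of 3 other genes from *ZNF317* to *ZNF846*. They were 12 of 26 and 1 of 6 from *ZNF565* to *ZNF573*, and 3 of 9 and 1 of 8 from *ZNF787* to *ZNF835*. From *ZNF264* to *ZNF446* the shares were close, at 13 of 43 members and 7 of 23 other genes. From *ZNF653* to *ZNF791* they were close as well, at 9 of 26 members and 5 of 13 other genes. Peak density over the whole span was 2.23 per Mb from *ZNF737* to *ZNF254* and 5.97 per Mb from *ZNF175* to *ZNF331*, against 101 per Mb from *ZNF628* to *ZNF581* and 42.1 per Mb from *ZNF575* to *ZNF180*. In the 3 sparsest of the 12 larger clusters, grouped after their values were seen, 9 of 77 members had a promoter peak (11.7%), against 79 of the remaining 172 (45.9%). Their median share of unique windows in member promoters was 93.2%, 94.8% and 92.6%.

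**Figure D5:**
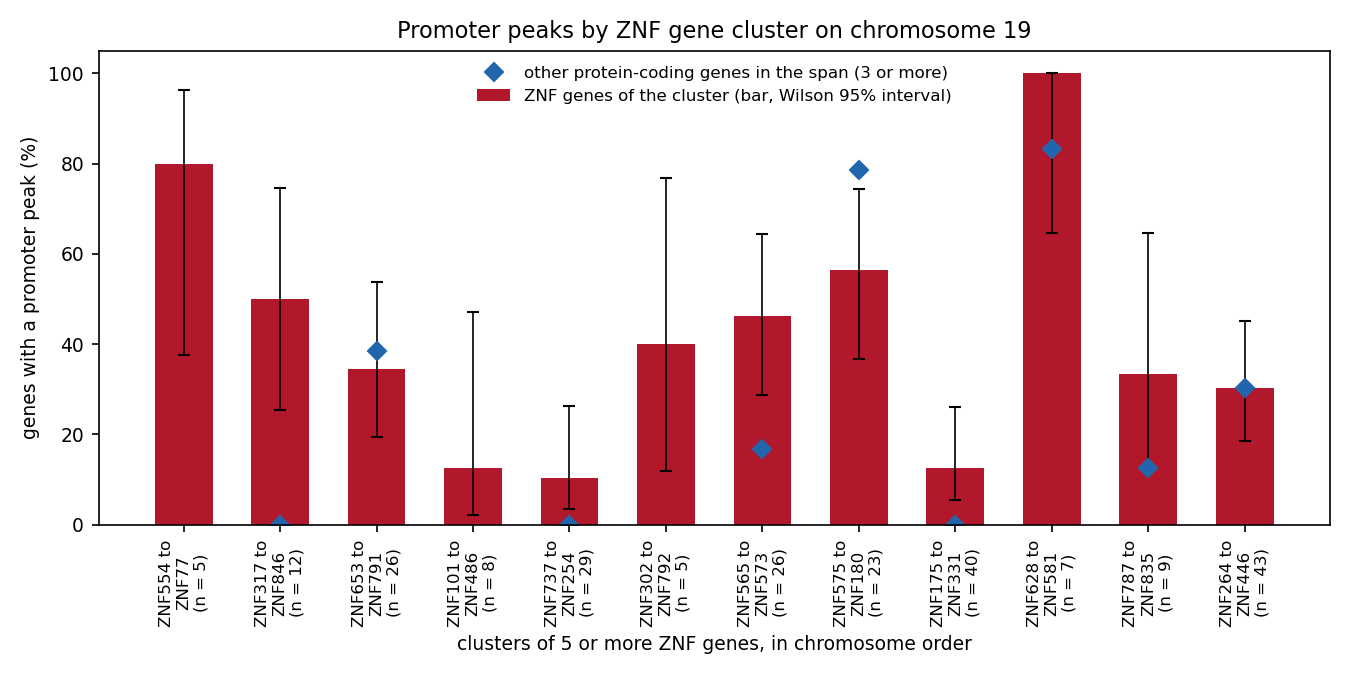
Percentage of members with a promoter peak in each of the 12 clusters of 5 or more members in chromosome order (bars, Wilson 95% intervals), with the percentage for other protein-coding genes in the same span (diamonds, where there are 3 or more). Values run from 10.3% in the *ZNF737* to *ZNF254* cluster to 100% in the *ZNF628* to *ZNF581* cluster.

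Shorter members had promoter peaks more often. The share was 56.0% (37.1% to 73.3%) for the 25 members under 10 kb, 43.5% from 10 to 20 kb, 31.4% from 20 to 40 kb and 22.6% (13.5% to 35.5%) for the 53 longer ones. The same classes of all protein-coding genes gave 27.8%, 38.3%, 38.7% and 36.1%, without that order. ZNF genes elsewhere were also higher below 20 kb, with 48.5% and 48.3%, than above it, with 34.6% and 34.7%. A KRAB-like stretch was found in 198 members, of which 32.3% (26.2% to 39.1%) had a promoter peak, and 47.1% (34.1% to 60.5%) of the 51 without it did. By fingers, the share was 32.2% of the 183 members with 10 or more and 43.9% of the 66 with fewer. The intervals of both splits overlap, and neither these features nor gene length was separated from cluster. A gene starting within 1000 bp on the opposite strand accompanied 36 members, of which 44.4% (29.5% to 60.4%) had a promoter peak, against 33.8% of the rest.

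ETS and CCAAT letters were more frequent in member promoters than in other promoters, and no more frequent in members with a peak than in those without. In the 300 bases from 250 before the start to 50 after it, the ETS letters CCGGAAG were found on either strand in 41.0% of members (35% to 47.2%), against 11.8% of all protein-coding genes and 13.2% of other chromosome 19 genes. They were present in 36.4% of members with a promoter peak and 43.5% of those without. CCAAT occurred in 53.0% of members against 35.8% of all genes, and in 46.6% and 56.5% of members with and without a peak. GGGCGG was found in 61.0% of members and 52.1% of all genes. The AP-1 letters TGANTCA were equally frequent in members (6.43%) and all genes (6.36%). The YY1 letters AAGATGGCG were rare, in 5 of the 88 members with a promoter peak and 2 of the 161 without, with 1.86% of all genes. The NRF1 letters GCGCATGC were in 4.82% of members and 3.76% of all genes. Matches of different motifs can abut, as in *ZNF91*, or overlap, and a match is no evidence of binding. CpG content, the observed over expected CG ratio of the promoter, had a median of 0.533 in members and 0.523 in all genes. In promoters with a ratio of at least 0.6, a peak was present in 35.7% of 70 members, 46.1% of all genes and 67.4% of other chromosome 19 genes. For ZNF genes elsewhere the share was 40.7% of 123.

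Of 10 listed members, several of them known for silencing transposable elements, 8 had no CHD4 peak, as did 132 of the 249 members and 8408 of the 20162 protein-coding genes. *ZNF91* and *ZNF93*, which act on SVA and L1 retrotransposons, had none, nor did *ZNF611*, *ZNF417* and *ZNF587*. Unique windows made up 77.6% and 79.5% of the promoters of the last pair. *ZNF91*, *ZNF93* and *ZNF611* lie in the 3 sparsest larger clusters, where 11.7% of members had a promoter peak, as do *ZNF432* and *ZNF331*. Whether the lack of peaks goes with location or with the role of these genes was not tested. *ZNF274*, which recruits SETDB1 to the 3′ ends of other zinc finger genes, had no peak either, with 98.3% unique windows in its promoter. *ZNF224* and *ZNF382* were likewise without a peak. *ZNF432* had 1 intron peak (52551548 to 52552357, fold 3.28), and the imprinted gene *ZNF331* had a promoter peak (54022408 to 54023215, fold 3.63) and an intron peak of fold 2.85. Of 17 listed genes of the KRAB silencing pathway, 13 had a peak, 9 a promoter peak, 8 an intron peak and none a peak in the last coding exon, beside 58.3%, 34.7%, 42.2% and 6.8% of all protein-coding genes. *ATRX*, a chromatin remodeller, had 4 peaks with a promoter fold of 4.60, and the DNA methyltransferase gene *DNMT1* had 4 with a highest fold of 4.27. *SETDB1* had 1 peak at its promoter (fold 3.37), and the genes of the heterochromatin proteins *CBX1*, *CBX3* and *CBX5* had promoter peaks with folds of 3.44, 3.48 and 3.35. The list held none at *TRIM28*, which lies on chromosome 19 beyond the last cluster, nor at *SUV39H2*, *TASOR* or *EHMT2*.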

How the data were processed

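CHD4 occupancy was measured in 501Mel cells with 1 ChIP and 1 input library. According to the submitters' processing notes, data were handled with bcl2fastq 2.17.1.14, Bowtie 1.0.0 and MACS2 2.1.1.20160309 on hg19. The authors kept single reads of 50 bases with 1 best position. The control used for calling is not stated in the sources used here and was taken to be the input. The deposited list gives peak positions, the authors' score, the fold enrichment over the background (a ratio) and the −log10 q, and was used as deposited. The score was not analysed. The list holds no counts, so depth is not given here. Peaks below the caller's minimum are not listed. The lowest −log10 q in the list was 1.00, and 48.5% of peaks reached 2, the value equal to the cutoff that the paper states.

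Positions were counted from 1 and an overlap of 1 bp counted. Promoters ran from 2000 bp before to 500 bp after the gene start, and exons and introns came from the canonical transcript, or the longest coding one for 281 genes (3 members). Fingers and KRAB-like stretches were found by patterns in coding sequences of GENCODE translated from GRCh37, since no RefSeq protein table was used. Windows of 50 bases were called unique if they occurred once in the genome on either strand. Clusters joined members within 300000 bp. Overlaps and uniqueness were tested on simulated data.

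The members and gene lists were chosen with earlier results of these data known. Named genes are the 6 members with the highest fold in promoter, intron and last coding exon peaks (4 in the last), the 5 with most peaks, those with the largest share of the last coding exon under peaks (a rule for 5, met by 4), and a fixed list of 10 genes and of 17 pathway genes. The members with the fewest unique windows, those with promoter peaks in the sparsest cluster, and the patterns for fingers and KRAB were chosen after values were seen. Alternatives covered thresholds on q, merged peaks, other overlaps, other promoter and gene extents, and the set without read-through genes. Python 3.11.15, numpy 2.4.6, pandas 2.3.3, scipy 1.17.1, numba 0.67.0 and matplotlib 3.10.9 were used.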

Additional observations from a re-analysis of the deposited data

How the results depend on the processing

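No paired analysis was possible because neither library was replicated and no test was run. Of 38 alternative values for the 6 main shares, 24 stayed within the interval of the reported value (within 10% for shares of bases) and 14 moved. Restricting the list to a −log10 q of 2 or more, which leaves fewer peaks by construction, lowered the share of members with a peak to 33.3%, with a promoter peak to 26.1% and with an intron peak to 18.5%, and the bases under peaks to 0.0782% of last coding exons and 0.422% of introns. At a −log10 q of at least 5 these values were 1.61%, 0.803%, 0.402%, 0.0% and 0.0149%, and the share of members with a last coding exon peak was 0.0%. Intron peaks depended on where an overlap was counted. They were found in 11.6% of members when the centre of the peak had to lie in the intron, and in 19.3% when intron bases in the member's own promoter were left out, which brought the bases to 0.425%. The last of these choices, and leaving out *ZNF536*, were added after the data were seen. With 1000 bp on either side of the canonical start as the promoter, 39.0% of members had a promoter peak. The share of all protein-coding genes at this setting is not given here. The comparison of promoters with all genes therefore rests on the outermost annotated start. With no replicates and no read counts, a gene without a peak is one below the caller's minimum in this library.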
